A study of Mus musculus with 4 samples.

Results

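The cyclin-dependent kinases CDK1 and CDK2 and 8 genes whose products set their activity were followed through the germ-cell stages and somatic types of the mouse testis. The 10 genes, out of 32285 in the count tables, were taken by symbol: the kinases *Cdk1* and *Cdk2*, the activating phosphatases *Cdc25a*, *Cdc25b* and *Cdc25c*, the inhibitory kinases *Wee1* and *Pkmyt1*, the inhibitor *Cdkn1b* and the small CKS subunits *Cks1b* and *Cks2*. The libraries came from mice at postnatal day 15 that were wild type or null for *Meioc*, a gene needed for timely meiotic entry, with 2 animals per genotype and 1 testis per animal. Each of 2 batches held 1 littermate pair, so the replicate number marks litter and batch together. All mice were on a C57BL/6N background, and all 4 were also heterozygous for *Hspa2*tm1Dix and homozygous for a ROSA26 tdTomato reporter whose stop cassette was left in place. The null allele was *Meioc*tm1.1Dpc.

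As a rule, a CDK needs a bound cyclin and the removal of its inhibitory phosphates to be active. WEE1 and PKMYT1 add those phosphates, the CDC25 phosphatases take them off, p27 (the product of *Cdkn1b*) blocks the cyclin-bound kinase, and the CKS proteins dock the complex onto phosphorylated substrates. CDK1 drives division in mitosis and both meiotic divisions, whereas CDK2 is dispensable for mitosis but needed in meiotic prophase. Loss of CKS2 arrests mouse germ cells at the first meiotic division.

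After barcodes with more than 1000 detected genes and under 10% mitochondrial unique molecular identifiers (UMIs) were kept and likely doublets removed, each library held 5644 to 7505 cells, with a median of 11698.5 to 14446 UMIs per cell. All deposited barcodes together, before these steps, held 158291903 to 190455307 UMIs per library. Between 7 and 16 kept cells shared a barcode with another library. Wild-type cells were clustered without the 10 genes and without any other listed cell-cycle gene, and every cell then took the cluster held by most of the wild-type cells nearest to it. Null cells could therefore form no cluster of their own, and any state without a wild-type counterpart was spread over these clusters. This gave 9 germ-cell clusters in order of distance from the least mature. G1 was undifferentiated spermatogonia-like. G2, G3 and G4 were differentiating spermatogonia-like. G5, led by *Rec8* and *Ctcfl*, stayed unnamed because markers of differentiating spermatogonia and of preleptotene cells scored alike. G6 was preleptotene-like (the last stage before meiotic prophase), G7 and G8 were early spermatocyte-like, and G9 was pachytene-like. No null cell was placed in G9. A shallow germ-cell cluster and 2 clusters on the somatic side also stayed unnamed, and Sertoli-like, peritubular myoid-like, interstitial fibroblast-like and Leydig-like cells were named. The 3′ UMIs of *Meioc* itself were plentiful in both genotypes and gave no check of the labels. In G6 they stood at 626 and 683 counts per 1e6 UMIs (CPM) in wild type, against 672 and 644 CPM in null; the null libraries were lower in G4 (304 and 302 against 219 and 238 CPM) and in G3, and higher in G7 (580 and 551 against 781 and 780 CPM) and in G8.

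Levels are given in CPM, the UMIs of a gene per 1e6 UMIs summed over all cells of a cluster in 1 library, with wild-type replicates 1 and 2 first and null replicates 1 and 2 second. Log2 fold changes are wild type over *Meioc*-null, so a negative value is a higher level without MEIOC.

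Promoter sequence is shown for the 4 genes that had the largest called differences between genotypes in the test with the detection limit, among those with a RefSeq window, so that the upstream sequence can be read beside those differences. Windows of 250 bases before to 50 bases after the start on GRCm38.p6 were held for 7 of the 10 genes, and the bases before every annotated transcript start are printed 5′ to 3′ on the strand of the gene. Capitals mark CCAAT boxes (CCAAT or, on the other strand, ATTGG), the TTTGAA element of cell-cycle promoters and the E2F-type words TTTCGCGC and TTTGGCGC, each searched on both strands, and no marked words overlap.
*Cdk1*, chr10:69352939-69353162, minus strand: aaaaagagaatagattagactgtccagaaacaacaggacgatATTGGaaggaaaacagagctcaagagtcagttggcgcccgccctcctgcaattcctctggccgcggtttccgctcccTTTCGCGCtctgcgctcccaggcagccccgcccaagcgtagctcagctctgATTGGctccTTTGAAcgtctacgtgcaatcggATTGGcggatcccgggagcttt
*Cks2*, chr13:51644982-51645231, plus strand: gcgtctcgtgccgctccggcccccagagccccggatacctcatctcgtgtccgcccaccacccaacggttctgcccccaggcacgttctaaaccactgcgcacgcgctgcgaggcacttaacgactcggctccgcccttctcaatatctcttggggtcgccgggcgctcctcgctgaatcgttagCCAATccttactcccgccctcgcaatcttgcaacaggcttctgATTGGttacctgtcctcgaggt
*Cks1b*, chr3:89418384-89418541, minus strand: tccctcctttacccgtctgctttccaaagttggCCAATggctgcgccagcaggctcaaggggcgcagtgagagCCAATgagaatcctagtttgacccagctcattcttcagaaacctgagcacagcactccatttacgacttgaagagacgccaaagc
*Cdc25a*, chr9:109875329-109875578, plus strand: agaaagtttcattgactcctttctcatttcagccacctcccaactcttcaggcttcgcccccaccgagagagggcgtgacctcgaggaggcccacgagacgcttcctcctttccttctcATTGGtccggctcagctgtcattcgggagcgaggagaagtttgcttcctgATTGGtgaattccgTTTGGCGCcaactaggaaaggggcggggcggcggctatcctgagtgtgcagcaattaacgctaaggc
The printed part of *Cdk1* held 3 CCAAT boxes, 1 TTTGAA and 1 E2F-type word. *Cks2* and *Cks1b* each held 2 CCAAT boxes in the printed part and 2 more in the rest of the window, and *Cks1b* had 2 TTTGAA words beyond the printed part. *Cdc25a* held 2 CCAAT boxes and 1 E2F-type word. Over 32544 promoter windows of the same length, 37.4% held a CCAAT, 17.8% a TTTGAA and 0.820% an E2F-type word. CACGTG, found in 7.17% of all windows, was in none of the 7. These matches describe letters in a window and nothing about which factor binds there.

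In wild type, the 10 genes peaked at different stages. *Cdk1* (chr10:69335146-69352938, minus strand) went from 54.6 ± 1.01 CPM (SD, n = 2) in G1 to 149 ± 4.81 CPM in G4, a cluster led in part by *Mki67*, *Plk1* and *Ccna2*. Among germ-cell cluster levels it was lowest in preleptotene-like G6, at 27.8 ± 6.45 CPM. It was highest in G8, at 270.0 ± 21.6 CPM, a 9.70-fold span. In G9 it was 150.4 ± 5.67 CPM, which overlapped the level in G4. *Cdk2* (chr10:128697939-128705031, minus strand) moved over a narrower 3.02-fold span, from 27.3 ± 2.74 CPM in G1 to 82.6 ± 0.352 CPM in G7. The order of the kinases thus differed at the 2 spermatocyte-like clusters: *Cdk2* was highest in G7 and *Cdk1* in G8. The *Cdk2* levels of G2, G3, G4 and G6 overlapped between neighbours.

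Of the phosphatases, which free CDKs from inhibitory phosphates, *Cdc25a* (chr9:109875579-109893895, plus strand) was highest in G3, G4 and G6, and was 57.9 ± 5.99 CPM in G1. It reached 124 ± 2.64 CPM in G3 and 115 ± 9.0 CPM in G6, with 65.4 ± 4.66 CPM between them in G5, and was 15.2 ± 2.24 CPM in G8 and 13.8 ± 2.38 CPM in G9. *Cdc25b* (chr2:131186949-131198497, plus strand) had a single maximum of 24.9 ± 2.99 CPM in G5. It was 2.24 ± 0.163 CPM in G7, and only 1 UMI was counted in all of G9. *Cdc25c* held a plateau between 22.2 and 25.7 CPM from G1 to G4, whose neighbours overlapped. Its level was 16.4 ± 1.13 CPM in G5 and 2.18 ± 0.439 CPM in G6. The 3 phosphatases therefore left wild-type germ cells at different points: *Cdc25c* was low from G6, *Cdc25b* from G7 and *Cdc25a* from G8.

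The inhibitory kinases showed opposite ends. *Wee1* (chr7:110122046-110143286, plus strand) varied least of the 10 genes, 2.52-fold, from 103 ± 1.88 CPM in G4 to 40.9 ± 10.3 CPM in G9. *Pkmyt1* (chr17:23726336-23736735, plus strand), whose product holds CDK1 inactive at membranes, stayed between 5.27 and 12.6 CPM in G1 to G8 and stood at 90.6 ± 32.6 CPM in G9. The 2 wild-type libraries disagreed on the size of that G9 level, 114 CPM in replicate 1 and 67.5 CPM in replicate 2, but both were far above every other cluster. Between 77.3% and 83.3% of G9 cells held a *Pkmyt1* UMI. G9 cells were also the deepest germ cells, with median totals of 46855 and 36690 UMIs, and after each cell was thinned to 4000 UMIs the shares were 32.7% (95% exact interval 26.3 to 39.6) and 20.8% (15.9 to 26.4), against 1.20% and 1.26% in myoid-like cells.

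*Cdkn1b* (chr6:134920401-134925513, plus strand) marked the least mature germ cells and the somatic cells. It was 33.3 ± 0.367 CPM in G1 and 1.16 ± 0.507 CPM in the next cluster, and between 0.50 and 1.0 CPM from G3 to G9. The somatic levels were 75.1 ± 8.38 CPM in Sertoli-like, 59.0 ± 7.49 CPM in fibroblast-like, 54.1 ± 3.17 CPM in myoid-like and 30.6 ± 0.591 CPM in Leydig-like cells. At 4000 UMIs per cell, 11.4% to 12.9% of G1 cells had a *Cdkn1b* UMI across the 4 libraries, 18.3% to 22.0% of myoid-like cells, and 0.186% to 0.390% of G6 cells. The source of the few G6 UMIs was not tested, and those shares are read as background.

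The CKS genes peaked at different ends of the series. *Cks1b* (chr3:89415472-89418383, minus strand), also a cofactor for the destruction of p27, was highest in G3 at 293 ± 6.01 CPM and lowest in G7 at 30.1 ± 2.44 CPM. *Cks2* (chr13:51645232-51650660, plus strand) was at 400.5 ± 49.9 CPM in G2, at 55.6 ± 9.72 CPM in G6 and at 338 ± 0.623 CPM in G7. It then stood at 1277 ± 28.3 CPM in G8 and 1583 ± 129.8 CPM in G9, a 28.5-fold span from G6. *Cks1b* in G8 was 73.4 ± 4.40 CPM. *Cks1b* has a retrotransposed relative, *Cks1brt*, in the same tables, and reads that fit both could have been lost or split when they were counted.

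Outside the germ line, Sertoli-like cells had the highest wild-type levels of *Cdk1* (87.0 ± 9.40 CPM), *Cdk2* (60.1 ± 6.76 CPM), *Cdc25a* (62.8 ± 5.78 CPM), *Wee1* (53.6 ± 2.82 CPM), *Cks1b* (91.3 ± 0.376 CPM) and *Cks2* (145 ± 0.0825 CPM) among the 4 named somatic types. In myoid-like, fibroblast-like and Leydig-like cells *Cdk1* lay between 9.06 and 22.0 CPM, and *Wee1* was at most 24.0 CPM. *Cdc25c* was close to absent from the somatic types, at 0.356 CPM in myoid-like and 1.22 CPM in Sertoli-like cells.

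**Figure D1:**
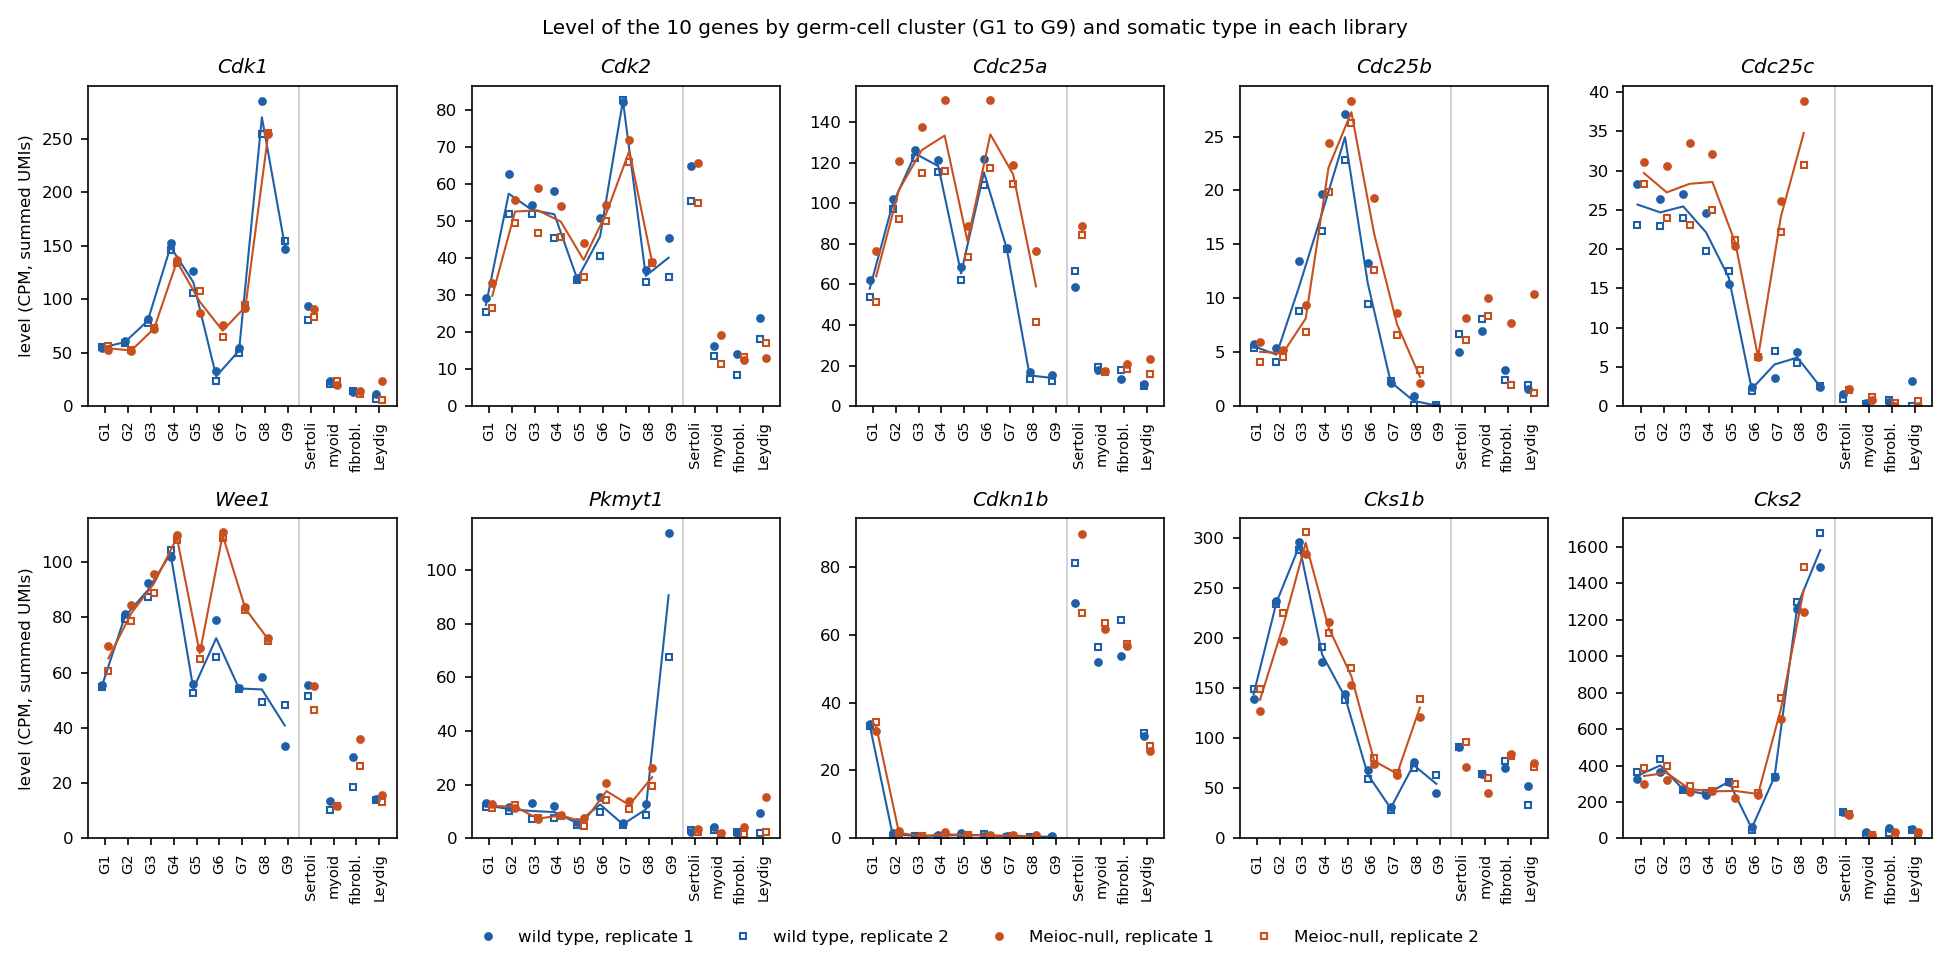
Level of each of the 10 genes (CPM, vertical axes with separate scales) in germ-cell clusters G1 to G9 and 4 somatic types (horizontal axis). Points are single libraries and lines join the means of 2 libraries per genotype. In G6 the null points of *Cdk1* and *Cks2* lie above the wild-type minimum of 27.8 and 55.6 CPM, and G9 has no null points.

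Across the 26 wild-type sums of counts (13 germ-cell clusters and somatic types in 2 libraries), *Cdk1* and *Cks2* had the highest correlation of any pair of the 10 genes (Pearson r = 0.85 on log2(CPM + 1)) and *Wee1* and *Cdkn1b* the lowest (r = -0.66). By the same measure, among 9373 genes, the closest in pattern were *Tomm22* to *Cdk1* (0.92), *Vac14* to *Cdk2* (0.91), *Lonrf3* to *Cdc25a* (0.97) and *Rnf31* to *Cdc25b* (0.91). For the others they were *Ppan* for *Cdc25c* (0.96), *Med17* for *Wee1* (0.95), *Phkg2* for *Pkmyt1* (0.93), *Mbnl2* for *Cdkn1b* (0.98), *Bax* for *Cks1b* (0.93) and *Kat7* for *Cks2* (0.96). The sums share libraries, and these values are descriptions.

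The genotypes were then compared within clusters, to ask at which stage the loss of MEIOC first touched this kinase network. In the spermatogonial clusters no gene of the network was called. A call required an adjusted p under 0.05 in edgeR's quasi-likelihood test, Benjamini-Hochberg adjusted over all genes tested in the cluster, and an absolute log2 fold change above 0.1. Genes entered the test when 25% or more of the cells of one genotype held a UMI of them. In G1, 0 of 9 tested members were called (0% of all 8453 genes, with 83 genes but 0 members at an unadjusted p under 0.05). G2 gave 0 of 8 (0.0116% of all genes), G3 0 of 7 (0.0255%) and G4 0 of 8 (0% of 7091 genes, 243 of them at an unadjusted p under 0.05, again with 0 members among them). With the littermate pair as a block, 0 members were called in G1 to G4 as well (0.296%, 0.396%, 1.14% and 2.89% of all genes). In G1, for example, *Cdkn1b* was 33.6 and 33.1 CPM in wild type, against 31.7 and 34.4 CPM in the null libraries. These ranges overlapped, with a log2 fold change of 0.02 ± 0.13 (SE). Some uncalled values had ranges that did not overlap. Examples are *Cdk1* in G2, G3 and G4 (0.23 ± 0.11, 0.16 ± 0.11 and 0.16 ± 0.09), *Wee1* in G1 (-0.22 ± 0.11) and *Cdc25c* in G4 (-0.34 ± 0.16). The share of all genes without overlap in G1 to G4 is not given here.

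In G5, the cluster before the preleptotene-like cells, 0 of 6 tested members were called (1.19% of all genes), and 2 had an unadjusted p under 0.05. *Cdc25a* was 68.7 and 62.1 CPM in wild type, against 88.9 and 73.7 CPM in null (log2 fold change -0.29 ± 0.11). *Wee1* was 55.8 and 52.5 CPM against 69.1 and 64.9 CPM (-0.28 ± 0.11). The ranges did not overlap for *Cdc25a*, *Wee1*, *Cdk2*, *Cks1b* and *Cks2*, and did for *Cdk1*; 34.1% of all genes did not overlap in G5. With the littermate pair as a block, edgeR called 3 members, where 9.42% of all genes were called: *Cdk1* (log2 fold change 0.29, adjusted p = 0.0216), *Cks2* (0.30, 0.0122) and *Cdc25a* (-0.29, 0.0311). *Cdk1* was 126 and 105 CPM in wild type, against 87.4 and 108 CPM in null, and *Cks2* 311 and 311 CPM against 223 and 299 CPM. The batches did not share a direction for *Cdk1*, with log2 ratios of 0.53 and -0.035. Both genes rested on null replicate 1: without null replicate 2 the unblocked fit called *Cdk1* (0.49, 0.0135) and *Cks2* (0.56, 0.00217), and without null replicate 1 the log2 fold changes were 0.071 and 0.028.

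In G6 *Cks2*, *Cdk1* and *Wee1* were higher without MEIOC, 3 of 6 tested members, against 24% of all 6015 genes called in either direction and 14.6% higher in null. *Cks2* was at 62.5 and 48.7 CPM in wild type, against 236 and 251 CPM in the null libraries. *Cdk1* was at 32.4 and 23.3 CPM in wild type, against 76.1 and 64.8 CPM in null. *Wee1*, the antagonist of CDK1, was at 79.1 and 65.8 CPM against 111 and 109 CPM. For all 3 genes both null libraries lay above both wild-type libraries, as was so, in either direction, for 55.4% of all genes in G6. By edgeR's quasi-likelihood test *Cks2* was 4.25-fold higher in null (log2 fold change -2.09 ± 0.11, adjusted p = 2.03e-10), *Cdk1* 2.45-fold (-1.29 ± 0.14, adjusted p = 1.01e-06) and *Wee1* 1.47-fold (-0.55 ± 0.11, adjusted p = 0.00084). From G5 to G6 *Cks2* went from 223 to 236 CPM in null replicate 1 and from 299 to 251 CPM in null replicate 2. In wild type it went from 311 CPM to 62.5 and 48.7 CPM. Each G5 value averages over cells with low and with high *Cks2*, as given below, so these steps are not changes per cell.

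Of the remaining members, *Cdc25a* in G6 was 122 and 109 CPM in wild type, against 151 and 117 CPM in null (-0.17 ± 0.11), *Cks1b* was 68.6 and 59.0 CPM against 74.7 and 80.1 CPM (-0.23 ± 0.12), and *Cdk2* was 51.0 and 40.7 CPM against 54.4 and 50.1 CPM (-0.14 ± 0.12). None of these 3 passed the test, and only the ranges of *Cks1b* did not overlap. *Cks1b* was called when cells were placed without any called gene (-0.33, adjusted p = 0.0390, edgeR). *Cdc25c*, under the detection limit here, was 2.49 and 1.87 CPM in wild type, against 6.30 and 6.20 CPM in null. Tested with no detection limit it was called (-1.49, adjusted p = 7.30e-05, edgeR), where 11% of all genes were.

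The shares of cells with a UMI were also higher in null for *Cks2*. With each cell thinned to 4000 UMIs, 20.4% (95% exact Clopper-Pearson interval 17.6 to 23.4) and 17.5% (14.9 to 20.4) of wild-type G6 cells and 45.2% (42.7 to 47.6) and 43.7% (40.8 to 46.7) of null G6 cells held a *Cks2* UMI. For *Cdk1* the shares were 12.4% (10.1 to 14.9) and 8.16% (6.30 to 10.4) in wild type and 24.6% (22.5 to 26.8) and 20.3% (18 to 22.8) in null. In myoid-like cells, which divide little, the shares over the 4 libraries ran from 6.72% to 14.5% for *Cks2* and from 7.34% to 11.6% for *Cdk1*. The wild-type *Cdk1* share in G6 was near that of myoid-like cells. Whether the myoid-like share is background or expression was not tested. Thinning left out 2 and 5 wild-type and 30 and 20 null G6 cells. Unthinned, the mean shares were 25.9% and 50.7% for *Cdk1* and 44.5% and 66.1% for *Cks2* in wild type and null.

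In G7 all 6 tested members differed between genotypes, against 52.1% of all genes: 5 were higher in null, where 27.4% of all genes were, and *Cdk2* was higher in wild type, where 24.7% were. *Cks2* was at 338 and 339 CPM in wild type, against 656 and 768 CPM in null, a 2.08-fold difference (-1.06 ± 0.13, adjusted p = 4.42e-06, edgeR). Its paralogue *Cks1b* was at 31.9 and 28.4 CPM against 63.6 and 65.6 CPM, 2.13-fold (-1.09 ± 0.13, adjusted p = 2.37e-06). *Cdk1* was at 54.2 and 49.6 CPM against 91.5 and 94.3 CPM, 1.77-fold (-0.83 ± 0.12, adjusted p = 1.48e-05). For each of these genes the null ranges lay wholly above the wild-type ranges, which held for 75.3% of all genes in one direction or the other.

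Both sides of the phosphate switch were higher in null G7 cells. *Cdc25a* was at 77.9 and 77.3 CPM in wild type, against 119 and 109 CPM in null (-0.54 ± 0.10, adjusted p = 0.000212, edgeR). *Wee1* was at 54.4 and 54.2 CPM against 83.6 and 82.5 CPM (-0.59 ± 0.11, adjusted p = 0.000346). *Cdk2* went the other way, at 82.3 and 82.8 CPM against 71.9 and 66.0 CPM, 1.22-fold higher in wild type (0.28 ± 0.11, adjusted p = 0.0387). The *Cdk2* call was the least stable of the 17, and leaving out any 1 library ended it. The log2 fold changes were 0.32 and 0.25 without wild-type replicates 1 and 2, and 0.31 and 0.26 without null replicates 1 and 2. With at least 14 germ-cell clusters the log2 fold change was 0.07, in a matching cluster that held only 52.5% of the wild-type G7 cells.

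*Cdc25c*, *Cdc25b* and *Pkmyt1* were below the detection limit in G7 and were higher in null when tested without it. *Cdc25c* was at 3.54 and 7.06 CPM in wild type, against 26.2 and 22.2 CPM in null (-2.06, adjusted p = 3.50e-21, edgeR, 23.4% of all genes called). *Cdc25b* was at 2.12 and 2.35 CPM against 8.59 and 6.58 CPM (-1.71, adjusted p = 5.70e-06). *Pkmyt1* was at 5.67 and 4.88 CPM against 13.9 and 11.0 CPM (-1.23, adjusted p = 1.72e-05). The 12 and 28 *Cdc25b* UMIs in the wild-type G7 libraries set the precision of that value. *Cdkn1b*, at 0.420 to 1.14 CPM in G7, was near background in both genotypes.

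In G8, where only 54 and 76 null cells were placed against 297 and 742 wild-type cells, 4 of 8 tested members were called, all higher in null. The share was below the 62.1% of all genes called there (30.9% higher in null). *Cdc25a*, *Cdc25c* and *Pkmyt1* met the detection limit only through the null cells, where they were high, so their direction was partly fixed by that limit and the count is no support for one. With no detection limit edgeR called these 3 (-1.64, -2.21 and -0.82), *Cks1b* (-0.57) and *Cdc25b* (-2.60, from 1 to 5 UMIs per library), where 30.3% of all genes were called. *Cdc25c* was at 6.84 and 5.53 CPM in wild type, against 38.9 and 30.8 CPM in null, 5.28-fold (-2.40 ± 0.27, adjusted p = 1.05e-07, edgeR). *Cdc25a* was at 16.7 and 13.6 CPM against 76.7 and 41.5 CPM, 3.56-fold (-1.83 ± 0.24, adjusted p = 1.36e-06). The 2 null libraries were further apart for *Cdc25a* than for *Cdc25c*, and neither gene overlapped between genotypes, as 80.1% of all genes did not in G8.

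*Cks1b* in G8 was at 76.5 and 70.3 CPM in wild type, against 122 and 140 CPM in null (-0.76 ± 0.14, adjusted p = 6.11e-05, edgeR). *Pkmyt1* was at 12.8 and 8.72 CPM against 26.3 and 19.4 CPM (-1.01 ± 0.29, adjusted p = 0.00475). The *Pkmyt1* call rested on 25 and 29 null UMIs and was lost without wild-type replicate 2 (-0.74, adjusted p = 0.0606) or null replicate 1 (-0.84, 0.0659). *Wee1* was at 58.5 and 49.3 CPM against 72.5 and 71.5 CPM and just missed the limit (-0.34 ± 0.16, adjusted p = 0.0662, edgeR). It was called with the littermate pair as a block (-0.34, 0.0441, 67.8% of all genes called) and with the lists allowed among the variable genes (-0.44, 0.0189). It was also called without doublet removal (-0.67, 0.000245) and with at least 14 germ-cell clusters (-0.49, 0.0103). The matching clusters without doublet removal and with at least 14 clusters held 80.8% and 83.6% of the wild-type G8 cells. With no detection limit the log2 fold change of *Wee1* was -0.15.

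The G8 levels of *Cdk1* and *Cks2* were not called. *Cdk1* was at 285 and 255 CPM in wild type, against 254 and 255 CPM in null (0.17 ± 0.12, adjusted p = 0.215, edgeR). *Cks2* was at 1257 and 1297 CPM against 1241 and 1492 CPM (-0.01 ± 0.17, adjusted p = 0.967). The genotypes overlapped for both genes. *Cdk2*, at 36.9 and 33.5 CPM against 38.9 and 38.8 CPM, did not overlap but was not called (-0.06 ± 0.19). When cells were placed without any called gene, edgeR called *Cdk1* in G8 (0.42, adjusted p = 0.00206), *Cdk2* (-0.46, 0.00796) and *Wee1* (-0.39, 0.0143). The main fit already called 62.1% of all genes in G8, and the share under this placement is not given here.

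**Figure D2:**
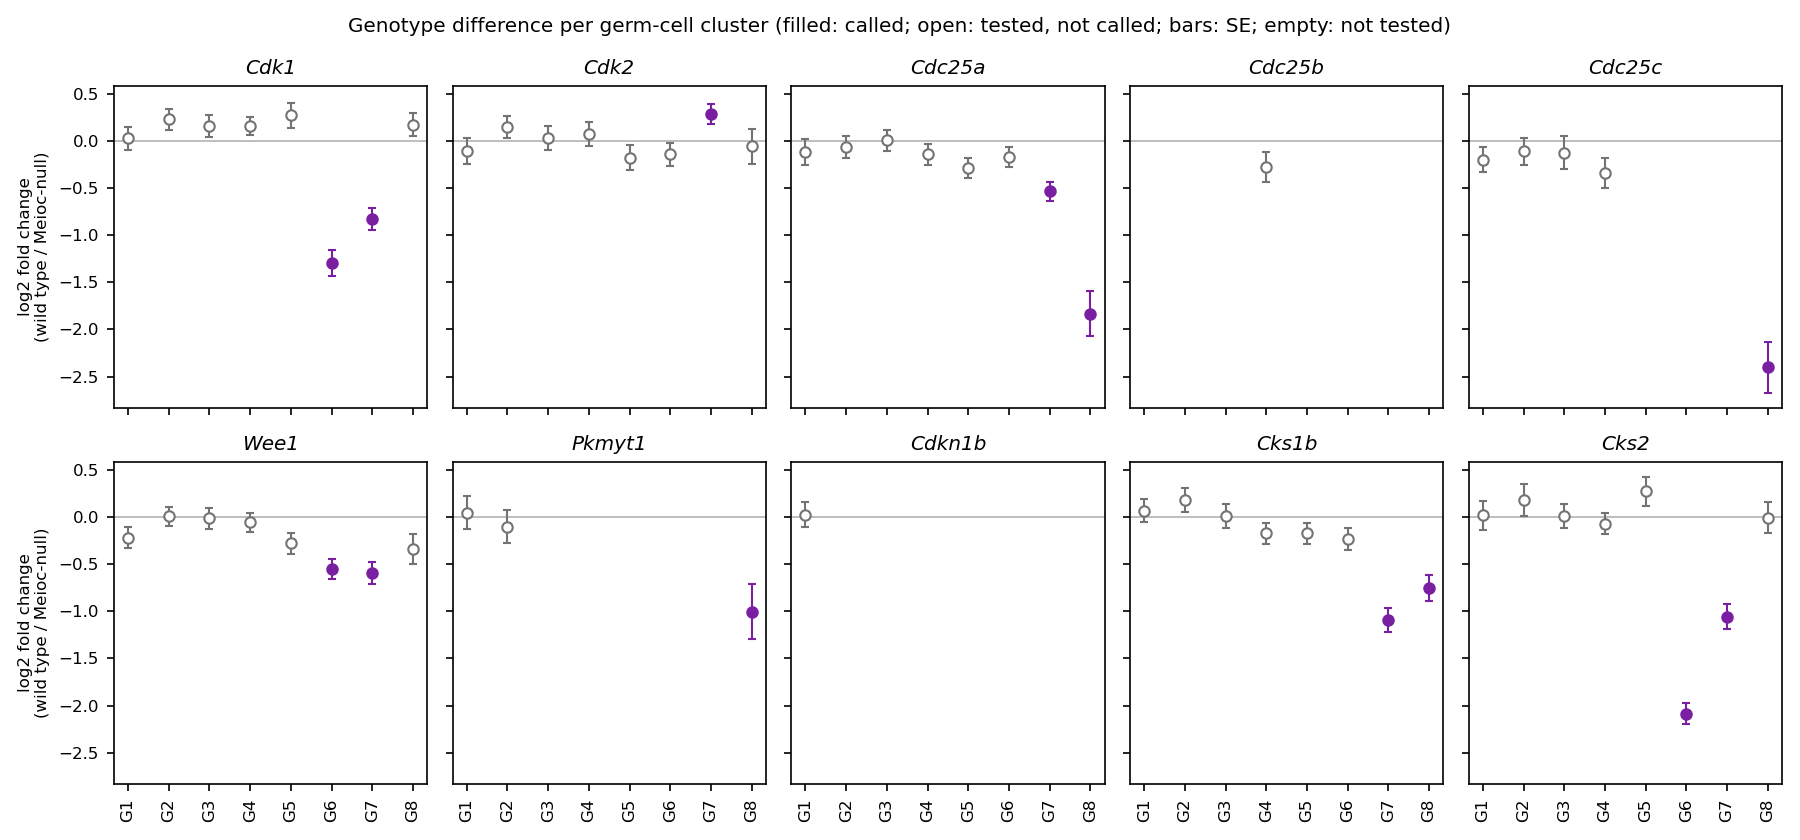
Log2 fold change (wild type over *Meioc*-null, vertical axis) of each of the 10 genes in clusters G1 to G8 (horizontal axis), with SE bars from edgeR. Filled points passed the test, open points did not, and a missing point was under the detection limit. All filled points lie in G6 to G8, and *Cdk2* in G7 is the one above 0.

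The genotype difference of a gene was itself compared between neighbouring clusters by an interaction term in edgeR. The test used cluster sums, which average over the cells of a cluster. From G1 to G2 *Cks2*, *Wee1*, *Cdk2* and *Cdk1* had an unadjusted p under 0.05 in edgeR, each toward wild type. At 1 or more later steps up to G5 *Cks1b*, *Cks2*, *Cdk2* and *Wee1* did, each toward null. The share of all genes at that unadjusted level is not given here. No member's difference passed the adjusted limit at any step from G1 to G5 (0 of 8, 7, 7 and 6 tested, with 0.0639%, 0.299%, 0.602% and 2.42% of all genes called). From G5 to G6 it changed for 3 of 6 members (37.9% of all genes; the *Wee1* step, with an adjusted p of 0.0384, had 0.0595 with DESeq2's size factors), most for *Cks2* (-2.36 ± 0.17, adjusted p = 0.000841) and *Cdk1* (-1.57 ± 0.20, adjusted p = 0.00115). From G6 to G7 it changed for 5 of 6 (49.7%) and from G7 to G8 for 4 of 6 (55%). In those steps the *Cdk1* and *Cks2* differences moved toward wild type, by 0.47 and 1.03 and then by 1.00 and 1.06 on the log2 scale. The last step took *Cdk1* past 0, from -0.83 in G7 to 0.17 in G8. The difference of *Cdc25a* moved toward null in both steps. In G8 *Cdc25a* met the detection limit only through the null cells, so its step into G8 rests in part on that limit.

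Genes that rise toward mitosis moved in the same clusters. Of a fixed list of 47 G2/M genes without the members, 29 of 42 tested were called in G6, all higher in null (24% of all genes called), 32 of 43 in G7, all higher in null (52.1%), and 39 of 46 in G8, 35 of them higher in null (62.1%). Their median log2 fold changes were -0.53, -0.55 and -0.72, beside medians near 0 over all genes tested. Their summed level in G6 was 8591 and 8951 CPM in wild type, against 12564 and 11767 CPM in null. How many genes of the G2/M list met the detection limit only through the null cells was not counted. The 4 most abundant were mixed: *Tubb4b*, a tubulin, was higher in null in G6 (-0.74, adjusted p = 0.000561), G7 and G8, the kinetochore gene *Cenpf* was higher in null in G6 (-0.51, adjusted p = 0.0252) and lower in G8 (0.35, adjusted p = 0.0272), *Hmgb2* was called in G8 (-0.50, adjusted p = 0.0194), and the condensin gene *Smc4* was 2.16-fold higher in wild-type G8 (1.11, adjusted p = 4.97e-06). A list of 42 S phase genes gave 7 of 38 called in G6, 4 higher in wild type and 3 in null (median 0.07), 15 of 35 in G7 (8 and 7) and 23 of 35 in G8 (4 and 19), beside 24%, 52.1% and 62.1% of all genes. The S phase calls in G8 leaned to null, 19 of 35 tested against 30.9% of all genes, with a summed level of 2812 and 2659 CPM in wild type, against 4126 and 3763 CPM.

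Levels of the members were next set out within clusters by how many G2/M list UMIs a cell held among 4000, with the wild-type median as the limit, a split chosen after the levels were seen and given without a test. Of the null G6 cells 1231 and 762 lay above the limit of 34 UMIs and 383 and 370 at or under it, and the 90th percentile was 79 and 74 UMIs in null against 46 and 50 in wild type. In cells at or under the limit *Cks2* was alike in both genotypes (log2 ratio 0.030), at 62.4 and 43.0 CPM in wild type, against 57.1 and 46.2 CPM in null. In cells above it, *Cks2* was 62.5 and 54.6 CPM against 289 and 347 CPM. The list sum that set this split was itself higher in null G6, so the split is not independent of genotype.

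*Cdk1* kept part of its difference in the cells with few G2/M UMIs, at 34.8 and 25.9 CPM in wild type, against 51.8 and 41.9 CPM in null (log2 ratio -0.62), and was 30.0 and 20.5 CPM against 83.7 and 75.9 CPM above the limit (-1.64). *Wee1* differed about as much on either side, with log2 ratios of -0.51 and -0.64. In G7 the limit was 47 UMIs, and only 70 and 75 null cells lay at or under it. Among these cells *Cdk1* was at 73.4 and 66.2 CPM in wild type, against 44.1 and 72.5 CPM in null, ranges that overlapped (0.26), whereas *Cdc25a* was at 54.8 and 46.4 CPM against 132 and 125 CPM (-1.34). Above the limit the order was the reverse, with *Cdk1* at 34.5 and 32.5 CPM against 95.6 and 96.2 CPM (-1.50) and *Cdc25a* nearly equal (-0.10). *Cks2* in wild-type G7 was 499 and 496 CPM at or under the limit but 172 and 177 CPM above it. In null it was 558 and 688 CPM, and 664 and 775 CPM (log2 ratios -0.32 and -2.04). In wild-type G7 *Cdk1* and *Cks2* were thus lower above the limit. Whether cells of the 2 genotypes on the same side were in like states was not tested. *Cdk2* in G7 had a log2 ratio of -0.065 at or under the limit and of 0.38 above it. In G8 the limit was 42 UMIs, and 0 and 2 null cells lay at or under it, so such cells could not be compared there. In G5 the limit was 24 UMIs. Wild-type G5 cells held *Cks2* at 66.3 and 51.7 CPM at or under it, and at 485 and 535 CPM above it. For *Cdk1* these levels were 16.6 and 12.7 CPM, and 205 and 185 CPM. Null G5 cells held *Cks2* at 54.3 and 46.0 CPM, and at 401 and 520 CPM.

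**Figure D3:**
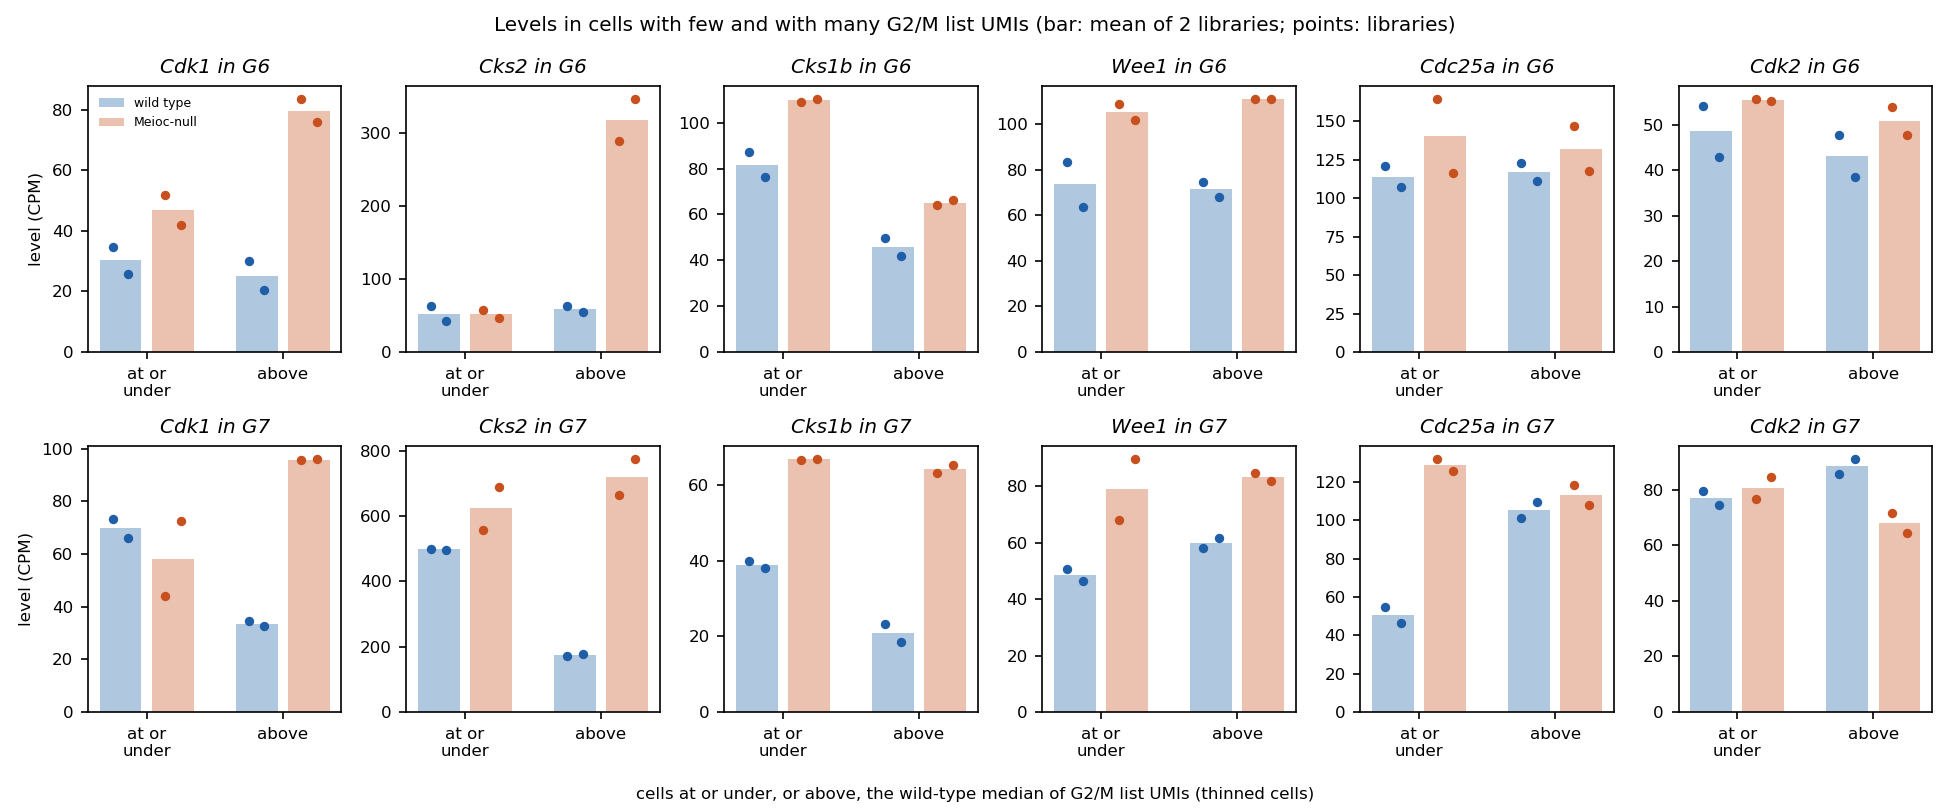
Levels (CPM, vertical axes from 0) of 6 genes in G6 (top) and G7 (bottom) in cells at or under, or above, the wild-type median of G2/M list UMIs (34 UMIs in G6, 47 in G7, of 4000). Bars are means of 2 libraries and points the libraries. *Cks2* in G6 is alike at or under the limit and separate above it.

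Stage markers moved with the genotype inside the later clusters. In G6 the summed level of 7 differentiating-spermatogonia markers was 818 and 764 CPM in wild type, against 840 and 823 CPM in null. The 5 preleptotene markers there were at 3681 and 3458 CPM against 4124 and 3788 CPM. The 8 early spermatocyte markers overlapped in G6, at 3252 and 2944 CPM against 3111 and 2867 CPM. In G7 the differentiating markers were at 331 and 282 CPM against 608 and 586 CPM. The preleptotene markers were at 1731 and 1429 CPM against 3062 and 2895 CPM, and 8 pachytene markers at 461 and 418 CPM against 255 and 266 CPM. In G8 the differentiating markers were at 216 and 205 CPM against 1089 and 1022 CPM and the pachytene markers at 1013 and 866 CPM against 195 and 229 CPM. The preleptotene markers in G8 were at 811 and 746 CPM against 1379 and 1223 CPM. The 8 early spermatocyte markers, the class of G7 itself, were also higher in null G7, at 5072 and 4729 CPM in wild type, against 6135 and 5762 CPM. The 7 markers of undifferentiated spermatogonia went the other way, at 31.0 and 26.0 CPM in wild-type G8, against 3.15 and 5.35 CPM in null. The preleptotene markers include *Meioc* itself, as well as *Stra8* and *Meiosin* (*Gm4969*), whose levels the study reports as changed by MEIOC. Their sum is therefore not independent of the genotype. The part of these marker differences in the member differences was not tested. Somatic marker lists were low in G6 to G8, at most 110 CPM (Sertoli) in any library.

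The other genes of the CDK pathway were read from a fixed list of 42 cyclins, further CDKs, inhibitors, mitotic kinases, degradation factors and transcription factors. No gene of the list was called in G1 to G5. In G6, 14 of 32 tested were called (11 higher in null, 3 in wild type; median log2 fold change -0.11), in G7 23 of 30 (15 and 8; -0.33) and in G8 20 of 30 (12 and 8; -0.07), where 24%, 52.1% and 62.1% of all genes were called. The G8 share was near that background. The 12 largest calls in G7 were led by *Plk1*, the kinase that activates CDC25 and marks WEE1 for destruction. *Plk1* was at 9.56 and 10.4 CPM in wild type, against 70.9 and 67.9 CPM in null (-2.76 ± 0.14, adjusted p = 1.81e-10, edgeR). At those wild-type levels it met the detection limit only through the null cells, so its direction was partly fixed by that limit. How many other genes of the pathway list did so was not counted. The inhibitor gene *Cdkn2a* was at 58.8 and 38.3 CPM against 173 and 181 CPM (-1.89). The cyclins that partner CDK1, *Ccnb1* (-1.69), *Ccna2* (-1.42) and *Ccnb2* (-0.80), and *Ccne2* (-1.12), a partner of CDK2, were each higher in null G7.

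Upstream of mitotic entry, *Aurka* (-1.13) and *Mastl* (-0.86) were higher in null G7 and *Ensa*, the substrate of the MASTL kinase, was higher in wild type (195 and 190 CPM against 95.8 and 85.3 CPM, 1.11). *Cdc20*, which directs the destruction of cyclins, was at 106 and 87.2 CPM in wild type, against 212 and 180 CPM in null G7 (-1.01), but at 459 and 400 CPM against 203 and 228 CPM in G8 (1.08, adjusted p = 3.07e-07). *Lin54*, a subunit of the complex that binds TTTGAA promoters, was higher in null (-1.23). *E2f1* was 2.15-fold higher in wild-type G7 (1.10, adjusted p = 3.50e-06) and higher in null in G8 (-1.20, adjusted p = 0.0031).

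**Figure D4:**
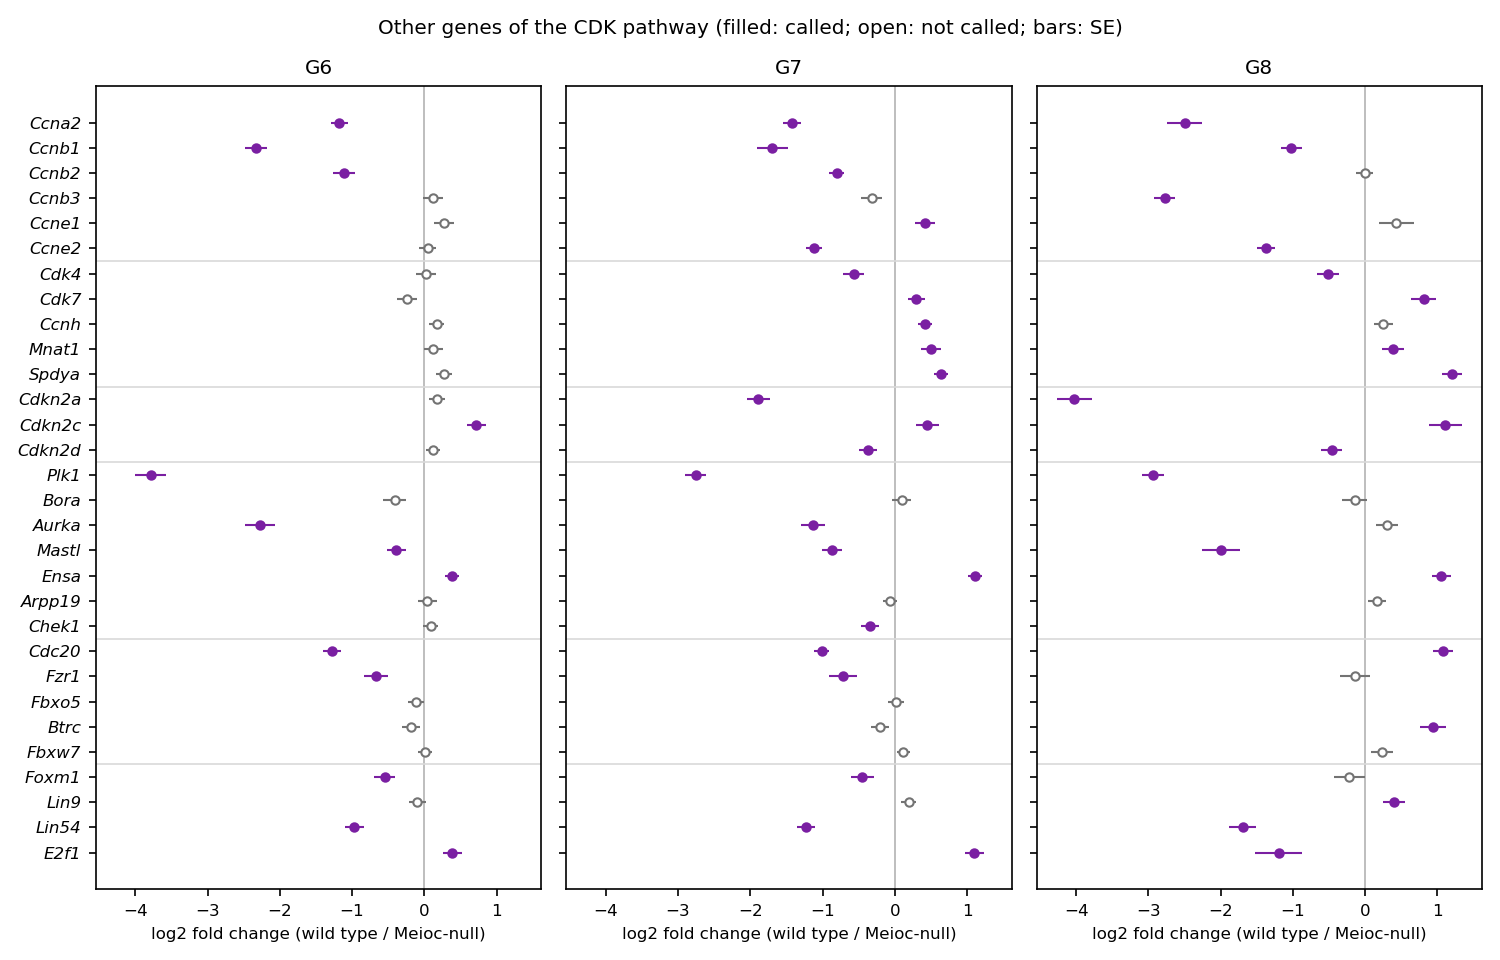
Log2 fold change (wild type over *Meioc*-null, horizontal axes) with SE of the 30 pathway genes tested in G7 (vertical axis, grouped by function), shown for G6, G7 and G8. Filled points passed the test. *Plk1* is far to the left in each panel, and *Cdc20* lies at -1.01 in G7 and at 1.08 in G8.

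Summed over all germ cells, 4 of 7 tested members were called, against 18.2% of all genes, and 2 of them pointed opposite to their calls in G6 and G7. *Cdk1* was at 107 and 103 CPM in wild type, against 80.4 and 83.5 CPM in null (0.42 ± 0.10, adjusted p = 0.0104, edgeR), and *Cks2* at 500.4 and 542 CPM against 322 and 395 CPM (0.60 ± 0.17, adjusted p = 0.0214). *Cdc25a* (-0.37 ± 0.11, adjusted p = 0.025) and *Cdc25c* (-0.46 ± 0.14, adjusted p = 0.0292) were higher in null. *Cdc25c* met the detection limit only through the null cells (22.7% and 19.1% of wild-type cells with a UMI, against 25.1% and 27.9%), so the count of 4 rests in part on that limit. With no detection limit *Cdc25c* was still called (-0.44, adjusted p = 0.0428) and *Cdc25a* was not (-0.35, 0.0613). The mix of cells differed between these sums. G8 and G9, where *Cdk1* and *Cks2* were highest, held 6.77% and 11.7% (G8) and 5.45% and 4.05% (G9) of wild-type germ cells. Of null germ cells they held 1.04% and 1.47% (G8) and none (G9). The sums weigh clusters by UMIs rather than cells, and the deep G9 cells held 12301405 of 89183010 and 10691509 of 113091901 wild-type germ-cell UMIs. Level per cell and share of cells therefore cannot be told apart here. Each of the 4 calls was lost in 1 or more of the fits that left out a library: *Cdk1* without null replicate 1 (0.34, adjusted p = 0.108), *Cks2* without wild-type replicate 2 (0.50, 0.121) or null replicate 1 (0.41, 0.199), *Cdc25a* without wild-type replicate 1, wild-type replicate 2 or null replicate 1 (0.0663, 0.0751 and 0.242), and *Cdc25c* without any of the 4 (0.0836 to 0.163). With the littermate pair as a block *Wee1* was called too (-0.27, adjusted p = 0.0216, 39.2% of all genes). With a mitochondrial limit of 5%, *Cdk1*, *Cdc25a* and *Cks2* (1.53) kept their calls, and *Wee1* (-0.40, 0.0319, edgeR) and *Cks1b* (-0.58, 0.0029) gained one. *Cdc25c* was then under the detection limit, and *Pkmyt1* was above it and called. The share of all genes called at this limit is not given here.

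In the somatic cells no member was called, nor in the shallow germ-cell cluster (0 of 3 tested, 0% of all genes, with 12 genes at an unadjusted p under 0.05). Of 7 members tested in Sertoli-like cells, 0 passed (0.112% of all genes), and *Cdc25a* had the lowest unadjusted p, at 58.7 and 66.9 CPM in wild type, against 89.1 and 84.1 CPM in null (-0.42 ± 0.18, edgeR adjusted p = 0.999). Myoid-like cells gave 0 of 2 (0.0552%), fibroblast-like cells 0 of 3 (0%, with 77 genes at an unadjusted p under 0.05) and 2 further unnamed clusters 0 of 3 each (0.0595% and 0%, the latter with 86 genes at an unadjusted p under 0.05). *Cks2* in fibroblast-like cells was at 57.1 and 27.7 CPM in wild type, against 33.0 and 14.9 CPM in null, overlapping ranges (0.90 ± 0.57), and was called with the littermate pair as a block (0.87, adjusted p = 0.0438, 0.205% of all genes) and without wild-type replicate 2 (1.33, adjusted p = 0.00056). In the shallow unnamed cluster led by *Tuba3a* and *Dazl*, which fell among the somatic cells though germ-cell markers scored highest in it, it was at 353 and 209 CPM against 173 and 172 CPM (0.67 ± 0.23, adjusted p = 0.999) and was called without wild-type replicate 2 (1.00, adjusted p = 0.00938). Leydig-like cells, with 21 to 71 cells per library, were not tested.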

How the data were processed

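Single-cell libraries (10x 3′ v3.1) of whole dissociated testes came from 4 mice; per the study's methods interstitial cells were partly washed away between digestions. The authors made the deposited files with Cell Ranger 4.0.0 on GRCm38: the values are raw UMI counts per gene and barcode, neither normalised nor filtered for doublets. Seurat was used by the authors after that step, and their cell annotation was not used here. Cell type names are rebuilt and may differ from the study's.

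Barcodes with more than 1000 genes and under 10% mitochondrial UMIs were kept, leaving 6334 to 8494 per library, and the highest Scrublet scores were removed at 0.8% per 1000 barcodes, 690 to 996 per library. Wild-type cells were clustered (Leiden, scanpy 1.11.5) on 2000 variable genes without mitochondrial genes and without the 141 member, pathway, S and G2/M genes. Each cell was placed by its 30 nearest wild-type cells, which put 98.8% of wild-type germ cells back in their own cluster. Names needed 3 fixed markers in at least 25% of cells. Sums of counts for each cluster of a library were compared with edgeR 4.0.16 (TMM, quasi-likelihood, robust) in R 4.3.3 in clusters with at least 50 cells per library, with Benjamini-Hochberg adjustment within each cluster. On simulated G6 counts of 6015 genes, 98% of 2-fold and 100% of 4-fold changes were recovered and 0.396% of unchanged genes were called. The simulation changed few genes, as many up as down, and drew each library independently. It therefore gives no error rate for the real comparisons, where many genes differed and same-numbered libraries deviated together. For 2 against 2 libraries an exact permutation test cannot go below p = 0.333, so none is given.

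The labels tie each replicate number to a batch of littermates, so the numbers pair the libraries: same-numbered libraries deviated together in G1 to G8 (correlations of 0.24 to 0.64). The fit without the block is the one reported first. Alternatives were the replicate block, DESeq2 1.42.0 and its size factors, no detection limit, other mitochondrial and doublet limits, other clusterings and placements, Bonferroni adjustment and leaving out each library. Intervals on shares cover counting error only. The p-values come from edgeR dispersions that share information across all tested genes, fitted to 2 animals per genotype. They therefore do not measure the spread of 1 gene between animals alone. SEs were worked back from the log2 fold change and the F statistic. The interaction test used sums of the same libraries in 2 clusters, so its small p-values rest on no further animals. Genes named outside the 10 were the 12 pathway genes with the largest calls in G7, the 4 most abundant G2/M genes and the genes closest in pattern. The members and lists were chosen with earlier results of these data known. *Cdk2*, *Cdc25b*, *Wee1* and *Pkmyt1* each overlap a gene on the other strand, and *Cdc25c* overlaps *Gm3550*. Whether these overlaps changed the counts was not tested.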

Additional observations from a re-analysis of the deposited data

Results flagged for a closer look

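The genotype difference of 12 members and cluster steps differed between neighbouring germ-cell clusters by edgeR's interaction test, Benjamini-Hochberg adjusted over all genes. Values are the log2 fold change in the later cluster minus that in the earlier one, so a negative value means that the null libraries gained relative to wild type. From G5 to G6 these were *Cks2* (-2.36, adjusted p = 0.000841), *Cdk1* (-1.57, 0.00115) and *Wee1* (-0.25, 0.0384). From G6 to G7 the kinases moved toward wild type, *Cdk1* by 0.47 (0.00117) and *Cdk2* by 0.42 (0.00237), as did *Cks2* by 1.03 (3.29e-28), while *Cks1b* (-0.86, 1.02e-09) and *Cdc25a* (-0.38, 0.000306) moved toward null. From G7 to G8 *Cdc25a* moved further toward null (-1.29, 1.20e-08), and *Cdk1* (1.00, 2.62e-14), *Cks2* (1.06, 3.54e-31) and *Cks1b* (0.34, 0.0371) moved toward wild type. In G8 *Cdc25a* met the detection limit only through the null cells, so its step there rests in part on that limit. The marker levels of null and wild-type cells also differed within G7 and G8, as given above, and their part in these values was not tested.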

How the results depend on the processing

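With the replicate block all 17 called member differences were kept and 6 of 69 others became called, giving 3 members in G5 and 1 in somatic clusters; with DESeq2's size factors 17 were kept and with DESeq2 itself 16. Among lists, the block moved only the S phase count of G6 past 1.5 times, to 11. Bonferroni adjustment over all genes and clusters left 2 members in G6, 2 in G7 and 2 in G8, ending the calls of *Wee1* in G6, of *Cdk1*, *Cdk2*, *Cdc25a* and *Wee1* in G7 and of *Cks1b* and *Pkmyt1* in G8, and left 7, 8 and 12 pathway genes in G6, G7 and G8, 10, 13 and 15 G2/M genes, and 1, 2 and 7 S phase genes. The shares of all genes left by Bonferroni adjustment are not given here, so those counts are no result about the members or lists. Cells placed without any called gene gave 7 members in G8 and 4 S phase genes in G6, where the main fit called 62.1% and 24% of all genes. The shares of all genes under this placement are not given here either. Leaving out 1 library moved some counts past 1.5 times, or from 0. These were members called in G5, in somatic clusters and over all germ cells, and S phase genes called in G6. Leaving out 1 library also ended the *Cdk2* call in G7 and, for some libraries, the *Pkmyt1* call in G8, as given above. These fits kept 1 animal in a genotype, so their counts are not given. In cells with few G2/M UMIs alone, an alternative added after the data were seen, *Cdk1* in G7 (0.26), *Cdk2* in G7 (-0.065) and *Cks2* in G6 (0.030) changed sign with overlapping genotypes, so no difference was seen there; the construction removes cells with many G2/M UMIs. Without thinning, the G6 shares were 25.9% and 50.7% for *Cdk1* and 44.5% and 66.1% for *Cks2* in wild type and null. The *Cdk2* call in G7 was also lost under DESeq2 (adjusted p = 0.0855). In edgeR it was lost with no detection limit (0.136) and with the lists allowed among the variable genes (0.0524). The cause was not tested. The *Wee1* step from G5 to G6 had an adjusted p of 0.0595 with DESeq2's size factors. Over all genes, G1 to G6 and all germ cells had 0, 1, 2, 0, 74, 1446 and 1265 calls, but 25, 34, 89, 205, 588, 2372 and 2732 with the block and 46, 72, 87, 112, 291, 2258 and 2572 with no detection limit. No detection limit gave 4959 calls in G7 against 3110, and DESeq2 gave 5, 5 and 3 in G1, G2 and G4. Sertoli-like cells had 10 calls, 48 with the block, 66 with no limit and 2 with DESeq2, and the other somatic clusters and the shallow germ cells, with 0 to 3 calls, had 1 to 9 with the block, 34 to 89 with no limit and 0 to 1 with DESeq2. The 5% mitochondrial limit called 6 members over all germ cells. The share of all genes at that limit is not given here, so the count is no result about the members. That limit left too few cells to test G1 to G8. The interaction test without 1 batch had no residual degrees of freedom and was not run. Depth limits *Cdc25b*, *Cdkn1b*, *Pkmyt1* and *Cdc25c* most.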

Other observations

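The genes next closest in pattern across the 26 wild-type sums were, for *Cdk1*, *Arl6ip1* (r = 0.91) and *Rbm17* (0.90), and for *Cks2*, *Hyls1* (0.96) and *Tmem170* (0.95). For *Cdkn1b* they were *Ddah2* and *Galnt2* (0.98 each), and for *Cdc25a* *Plekhh1* and *Nampt* (0.95 each). *Cks1b* and *Cks2*, which encode closely related subunits, had r = 0.20. These are descriptions over sums that share libraries.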
